A study of Mus musculus with 15 samples.

Results

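EMT6.5 is a mouse mammary carcinoma line, a single-cell clone of the EMT6 tumour, and 3 primary tumours grown from it were set against 12 primary tumours of 4 other lines, out of 15 tumours in all. The EMT6.5 tumours were chosen by their titles. For every gene, represented by its brightest transcript cluster (the array's unit of measurement), their mean was compared with the mean of the 4 other types, each type weighted equally, and genes whose 3 EMT6.5 values lay beyond all 12 other values were described further. 67NR and 4T1.2 were grown in Balb/c hosts, as EMT6.5 was, while the hosts of EO771 and EO771.LMB were C57Bl/6 mice, with 3 tumours of each type. EMT6.5, 4T1.2 and EO771.LMB are labelled metastatic, and 67NR and EO771 non-metastatic. All tumours came from female mice of 6 to 8 weeks by the labels and were taken from the 4th inguinal mammary fat pad at a volume of 400 to 600 mm3. 4T1.2 is likewise a clone of a single cell, EO771.LMB was derived from a lung nodule of EO771. Per the study's methods, EO771 cells were given a retroviral mCherry reporter before EO771.LMB was derived, and 67NR and 4T1.2 tumours with mCherry are mentioned too; whether the tumours on these arrays carried it is not given in the sources used here. Since each type is 1 line, differences between EMT6.5 and the types in C57Bl/6 mice contain both the line and the host strain, which cannot be told apart.

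Mammary carcinoma cells that have moved away from an epithelial state keep some junction proteins and keratins while they express contractile, matrix and growth factor genes otherwise typical of fibroblasts. Desmosomes join epithelial cells through cadherins that are tied to keratin filaments by plakin and armadillo proteins. Whole tumours also hold fibroblasts, vessels, leukocytes and remnants of the surrounding tissue, so that in these arrays fewer cells of a type and less RNA per cell cannot be told apart.

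Total RNA of each tumour was hybridised to 1 Affymetrix Mouse Gene 1.0 ST array, and values are log2 signals from 3.26 to 13.98 with array medians of 6.32 to 6.44. A difference of 1 on this scale is a 2-fold change. The 3 EMT6.5 arrays correlated at 0.984 to 0.985 with each other across clusters, at 0.954 to 0.963 with 4T1.2, at 0.950 to 0.960 with 67NR, at 0.942 to 0.944 with EO771 and at 0.933 to 0.943 with EO771.LMB. Among mammary epithelial markers, Krt8, a keratin of simple epithelia, measured 10.47, 10.55 and 10.55 in EMT6.5 against 9.60 to 10.88 in the other tumours, whereas Epcam, the epithelial adhesion molecule, measured 6.76, 6.40 and 5.24 against 5.10 to 6.53.

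The EMT6.5 tumours differed among themselves in transcripts of skeletal muscle, B cell and mammary genes. The source of these transcripts was not tested. Skeletal muscle genes were high in EMT6.5 tumours 1 and 3 and not in tumour 2. Myh4, a fast myosin heavy chain, measured 9.08, 4.57 and 9.62 in tumours 1, 2 and 3 and 4.23 to 4.92 in the other 12 tumours. Ttn, the giant sarcomeric protein titin, measured 9.48, 5.42 and 9.80 against 5.16 to 5.69. The mean deviation of 35 muscle genes from the mean of the 5 types was 1.01, -0.21 and 1.39 in the 3 EMT6.5 tumours, and it was at most -0.10 in every other tumour. EMT6.5 tumour 1 alone among the 3 was high in Ms4a1, the B cell antigen CD20 (8.35, 5.08 and 4.94), and in Glycam1 (8.55, 5.04 and 5.12). Other tumours reached 8.49 and 10.05. The study describes Glycam1 both in lymph node venules and in mammary epithelium of pregnancy and lactation. Prlr, the prolactin receptor of mammary epithelium, measured 8.77, 6.97 and 4.94, and the mean deviation of 25 mammary secretory genes was 0.41, 0.22 and -0.34. Krt8, Epcam, Ms4a1, Glycam1 and Prlr were chosen after their values were seen. Of all genes, 56 spanned more than 2 log2 units within EMT6.5, against 6 to 20 within each other type, while the median SD within a type was 0.141 for EMT6.5 and 0.123 to 0.161 for the others.

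**Figure D1:**
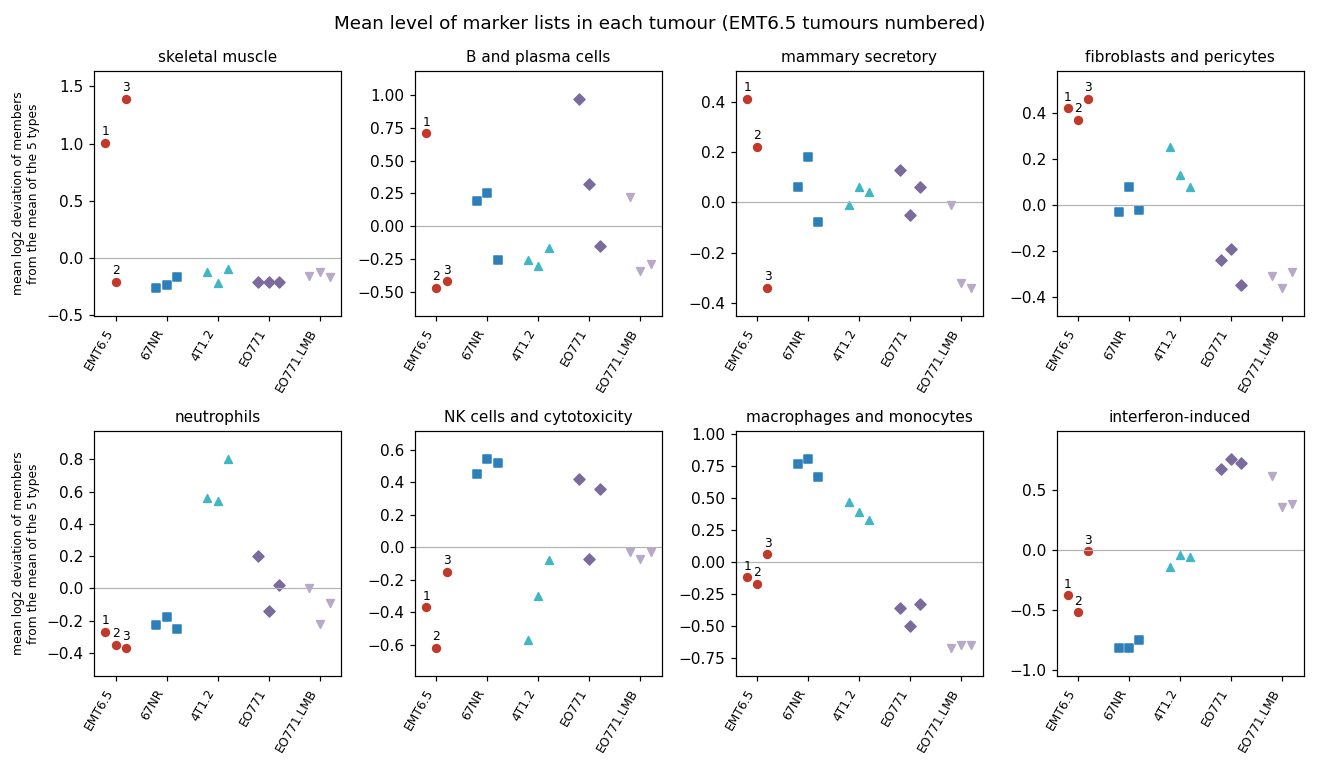
Mean log2 deviation of a marker list's members from the mean of the 5 types (vertical axis) in each of the 15 tumours, by tumour type (horizontal axis), with 1 point per tumour and the EMT6.5 tumours numbered. Skeletal muscle genes stand at 1.01 and 1.39 in EMT6.5 tumours 1 and 3 and at -0.21 in tumour 2, and B cell genes at 0.71 in tumour 1, the only EMT6.5 tumour above 0.

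EMT6.5 was set apart by many genes in both directions. Of 22008 genes, 2534 were higher in EMT6.5 than in the mean of the 4 other types and 2615 were lower (limma, adjusted p under 0.05), which is 11.5% and 11.9% of the genes tested, and 16859 did not pass. All 3 EMT6.5 tumours lay above all 12 other tumours in 792 of the higher genes (3.6% of all genes) and below them in 539 of the lower genes (2.45%). The nearest tumours were more than 1 log2 unit apart in 70 of the genes above and 26 of the genes below, and more than 2 units apart in 24 and 7. Such separation was not particular to EMT6.5: by the same count 67NR had 1171 genes above and 915 below all tumours of the other types, 4T1.2 904 and 982, EO771.LMB 449 and 386, and EO771 310 and 221. The nearest other tumour was a Balb/c tumour in most of the genes beyond all others, 4T1.2 in 300 (37.9%) and 67NR in 233 (29.4%) of the 792 genes above, and 4T1.2 in 217 (40.3%) and 67NR in 174 (32.3%) of the 539 below. With the 12 other tumours as 1 group, whose spread then includes the differences among the 4 types, 613 genes were higher and 360 lower. With EMT6.5 tumour 2 as the only EMT6.5 tumour, an alternative chosen after seeing the data in which a lone sample is assumed to vary like the other types, 1148 genes were higher and 1111 lower.

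The genes with the largest differences included a retinoid carrier, the desmosome gene Dsp, the protocadherins Pcdh7 and Pcdh19 and secreted factors. Crabp2, which carries retinoic acid to its nuclear receptors, measured 11.26, 11.11 and 11.57 in the EMT6.5 tumours and 5.83 to 7.02 (median 6.46) in the other 12, a difference of 4.84 (SE 0.17, adjusted p = 1.6e-10) or 28.6-fold. Dsp, desmoplakin, which ties desmosomes to keratin filaments, measured 10.42, 10.41 and 10.41 against 5.26 to 6.19 (median 5.64), a difference of 4.77 (SE 0.11, adjusted p = 2.4e-12). In the 4 other types the means of Dsp lay between 5.44 and 5.96, under every array's median, and those of Crabp2 between 6.23 and 6.91, around it. The clone-named 4933400A11Rik and 2310002L13Rik, whose differences of 5.05 and 4.87 were larger, are outside the rule for the leading genes and were chosen after their values were seen. Slitrk6, a transmembrane protein of neurons and the inner ear, showed the same form, with 8.76, 9.11 and 8.87 against 4.30 to 4.92 (median 4.51) and a difference of 4.37 (SE 0.11, adjusted p = 4.1e-12). Anxa8, a phospholipid-binding annexin, measured 9.96, 10.34 and 9.91 against 5.06 to 6.77, a difference of 4.15 (SE 0.17, adjusted p = 6.4e-10). For these genes no other type came within 2 log2 units of EMT6.5.

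Edil3, Gbp1, Gsta4 and Pdgfc were also above all other tumours, with higher levels in 1 or both of the other Balb/c types than in the C57Bl/6 types. Edil3, a secreted protein that binds integrins, measured 10.44, 10.50 and 10.36, with a mean of 8.38 in 4T1.2 and means of 5.66, 4.59 and 4.84 in 67NR, EO771 and EO771.LMB (difference 4.57, SE 0.09, adjusted p = 2.7e-13). Gbp1, an interferon-induced GTPase, measured 11.75, 11.60 and 11.93, with means of 9.35 in 67NR, 10.39 in 4T1.2, 5.42 in EO771 and 5.28 in EO771.LMB (difference 4.15, SE 0.26, adjusted p = 4.1e-08). Its difference was 1.89 against the Balb/c types and 6.41 against the C57Bl/6 types, and it did not pass with the 12 other tumours as 1 group (adjusted p = 0.11). Gsta4, a glutathione transferase that detoxifies lipid peroxidation products, measured 11.26, 11.38 and 11.55, with means of 8.67 and 9.63 in 67NR and 4T1.2 and of 5.55 and 5.58 in EO771 and EO771.LMB (difference 4.04, SE 0.12, adjusted p = 2.8e-11). Pdgfc, a ligand of the platelet-derived growth factor receptor alpha, measured 10.61, 10.74 and 10.70 against 5.81 to 7.65 (median 6.65), a difference of 3.98 (SE 0.10, adjusted p = 3.4e-12). In Gbp1 and Gsta4 the C57Bl/6 types formed the lowest group and the Balb/c types lay between them and EMT6.5.

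The other 7 of the 15 leading genes differed by 3.62 to 3.95, and all had a gap of more than 2 log2 units to the nearest other tumour. They were Megf10, an engulfment receptor (8.54, 9.13 and 8.83 against 4.24 to 5.54), Gng11, a G protein gamma subunit (10.54, 10.71 and 10.54 against 5.94 to 7.38), and the protocadherins Pcdh7 (9.28, 9.51 and 9.57 against 4.99 to 6.01) and Pcdh19 (9.08, 9.44 and 9.43 against 5.04 to 6.36). Pdk4, a kinase that inhibits pyruvate dehydrogenase, measured 9.59, 9.44 and 9.60 against 5.35 to 6.15. Sema3c, a secreted semaphorin, measured 9.18, 8.68 and 9.20 against 4.64 to 6.47, and Evi1 (Mecom), a zinc finger transcription factor and leukaemia oncogene, 9.34, 9.38 and 9.36 against 4.99 to 6.38. Their highest limma adjusted p was 2e-08, for Megf10.

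**Figure D2:**
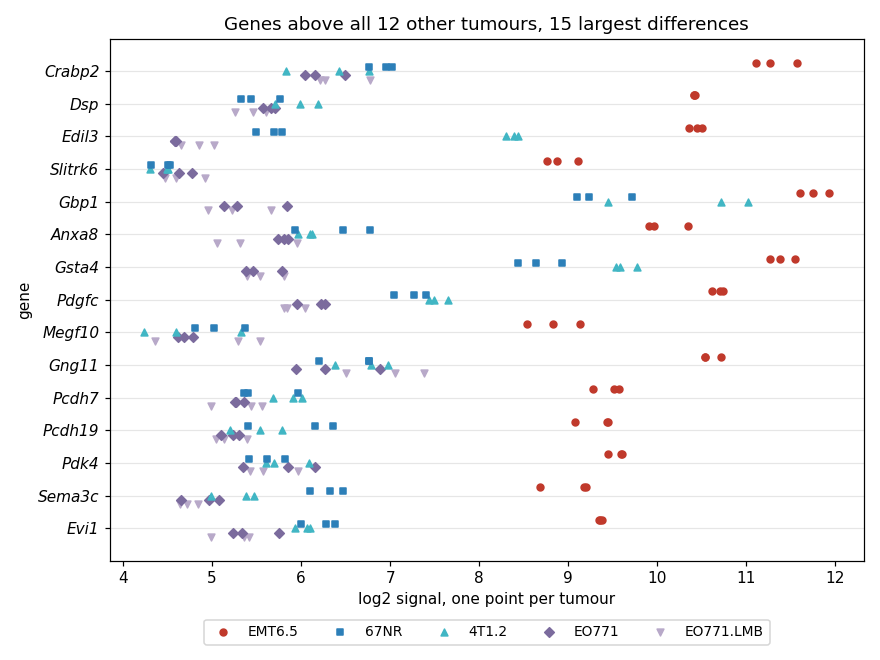
Log2 signal (horizontal axis) of the 15 genes with the largest differences among those above all 12 other tumours (vertical axis), with 1 point per tumour and a colour and symbol for each type. The EMT6.5 tumours lie to the right of all others in every row, and Edil3 in 4T1.2 and Gbp1 and Gsta4 in both Balb/c types lie between EMT6.5 and the rest.

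The largest differences in the other direction held genes of oxygen sensing, carbohydrate and amino acid handling and protein modification. Egln3, a prolyl hydroxylase that marks hypoxia-inducible factors for degradation, measured 7.38, 7.48 and 7.10 in EMT6.5 and 9.90 to 12.35 (median 11.22) in the other 12 tumours, a difference of -3.88 (SE 0.10, adjusted p = 8.8e-12). Zbtb10, a zinc finger repressor, measured 6.83, 6.69 and 6.73 against 9.20 to 11.74 (median 10.97), a difference of -3.99 (SE 0.11, adjusted p = 1.6e-11). Fggy, a carbohydrate kinase, measured 5.18, 5.02 and 4.37 against 8.07 to 9.35 (median 8.54), a difference of -3.76 (SE 0.15, adjusted p = 3.4e-10). For each of the 3 genes all other types were more than 2 log2 units higher. Zdhhc2, a palmitoyl transferase, measured 7.19, 6.36 and 7.42 against 9.12 to 10.92 (difference -3.36, SE 0.16, adjusted p = 1.9e-09), and Rnf219 (Obi1), a ubiquitin ligase of replication origins, 7.44, 7.06 and 7.08 against 9.87 to 10.66 (difference -3.11, SE 0.15, adjusted p = 1.7e-09). Casc4 (Golm2), a Golgi membrane protein, Gnao1, a G protein alpha subunit, Stk39, a kinase of ion transport, and Slc38a1, a glutamine transporter, were lower by -3.16, -2.68, -2.60 and -2.53. Slc38a1 was ordered by type, with means of 9.71 in 67NR, 10.73 in 4T1.2 and 11.46 and 11.49 in EO771 and EO771.LMB, and values of 8.31, 8.48 and 8.16 in EMT6.5.

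Dkk2, a secreted regulator of Wnt signalling, separated EMT6.5 only narrowly: it measured 5.88, 5.99 and 6.10 in EMT6.5, 6.13 or more elsewhere, and means of 6.27 and 6.44 in 67NR and 4T1.2 but 11.71 and 11.68 in EO771 and EO771.LMB. Its difference of -3.03 (SE 0.13, adjusted p = 6.4e-10) was -0.36 against the Balb/c types alone (adjusted p = 0.093), and it did not pass with the 12 other tumours as 1 group (adjusted p = 0.36). Amelx, an enamel protein gene that lies within Arhgap6, a GTPase-activating protein gene, was lower by -2.81, and Arhgap6 by -2.69, and signals of overlapping genes are uncertain. EG546249, EG666280 and EG434459 are predicted genes, lower by -4.13, -3.92 and -2.63. In all 3 the order of the other types was the same, highest in 67NR (means 10.92, 11.24 and 9.66) and lowest in 4T1.2 (8.10, 8.88 and 6.85), and probes of near-identical gene copies may share signal.

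**Figure D3:**
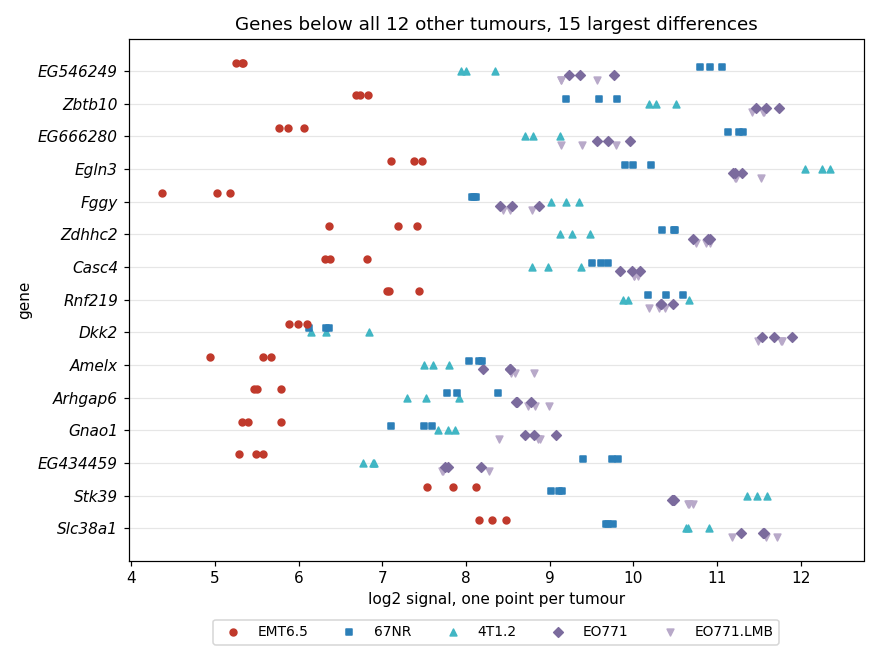
Log2 signal (horizontal axis) of the 15 genes with the largest negative differences among those below all 12 other tumours (vertical axis), with 1 point per tumour and a colour and symbol for each type. EMT6.5 lies to the left in every row, by more than 2 log2 units in Egln3, Zbtb10 and Fggy and by 0.03 in Dkk2.

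Several large differences did not set EMT6.5 apart from every tumour, because 1 or more types shared its level. Has2, a hyaluronan synthase, measured 10.40, 10.63 and 10.37 in EMT6.5 and a mean of 10.59 in 4T1.2, with 6.96, 5.73 and 5.34 in 67NR, EO771 and EO771.LMB (difference 3.31, SE 0.12, adjusted p = 2.4e-10). Its level was thus shared by EMT6.5 and 4T1.2. With the 12 other tumours as 1 group Has2 (adjusted p = 0.16), Nhedc1 (0.089), Slc14a1 (0.36) and Chic1 (0.15) did not pass. On the low side, Nhedc1, a sodium-proton exchanger, was at 5.20, 4.80 and 4.88 in EMT6.5 and 5.25 in 4T1.2 (difference -3.36), and Slc14a1, a urea transporter, at 6.37, 5.60 and 5.98 with means of 6.14 and 6.59 in 67NR and 4T1.2 and of 12.04 and 11.92 in EO771 and EO771.LMB (difference -3.19). Chic1, a palmitoylated membrane protein, was at 5.86, 5.65 and 5.46 in EMT6.5 and 5.96 in 4T1.2, against 8.00, 10.42 and 10.15 (difference -2.98).

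Promoter sequences were set beside these differences for 2 motifs, the CArG box of serum response factor, which serves contractile and early response genes, and the antioxidant response element TGACNNNGC of genes of detoxification. Both strands were searched in the 250 bases before and 50 after each start in RefSeq promoters (GRCm38.p6). The CArG box was found in 10 of 597 genes above all other tumours that had a promoter (1.68%), in 7 of 390 below (1.79%) and in 269 of all 15760 measured genes (1.71%). The antioxidant element was found in 114 of the 597 (19%), in 62 of the 390 (16%) and in 2414 of all (15%). Among the 15 leading genes on the high side, Pdgfc held a CArG box and an antioxidant element and Slitrk6 an antioxidant element. Among the 15 on the low side, Fggy, Rnf219, Amelx and Arhgap6 held an antioxidant element. The promoters of Pdgfc and Slitrk6 are shown because these genes differed most among those with a match. Beside them stands 1 of the promoters of the early response gene Egr2, which holds both motifs. The capitals mark the motif named on each line. A match is a description of the letters and not of a bound site.
Pdgfc, chr3:81036166-81036465, plus strand, CArG box: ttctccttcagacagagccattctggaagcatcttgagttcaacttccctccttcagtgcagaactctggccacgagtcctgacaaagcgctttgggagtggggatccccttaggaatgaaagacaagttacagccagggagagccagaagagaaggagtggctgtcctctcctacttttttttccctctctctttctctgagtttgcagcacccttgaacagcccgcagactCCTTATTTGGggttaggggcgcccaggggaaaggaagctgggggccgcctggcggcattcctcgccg
Egr2, chr10:67537619-67537918, plus strand, CArG box: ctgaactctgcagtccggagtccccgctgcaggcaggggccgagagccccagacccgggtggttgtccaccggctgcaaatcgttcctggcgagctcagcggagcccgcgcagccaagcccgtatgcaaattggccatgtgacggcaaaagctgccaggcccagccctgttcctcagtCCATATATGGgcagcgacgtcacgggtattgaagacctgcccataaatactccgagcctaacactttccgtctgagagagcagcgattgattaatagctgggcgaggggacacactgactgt
Slitrk6, chr14:110755100-110755399, minus strand, antioxidant element: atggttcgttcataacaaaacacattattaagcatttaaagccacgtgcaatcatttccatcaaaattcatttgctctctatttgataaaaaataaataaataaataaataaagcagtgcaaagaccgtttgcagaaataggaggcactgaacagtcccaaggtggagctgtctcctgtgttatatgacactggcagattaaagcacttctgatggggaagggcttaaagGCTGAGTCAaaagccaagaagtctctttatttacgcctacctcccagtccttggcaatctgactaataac

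In the epithelial lists, single junction and keratin genes rose while most markers did not pass. Of 32 basal and squamous genes 11 were higher and 2 lower, beside 11.5% and 11.9% of all genes, with a median difference of 0.23 against -0.01 over all genes, and of 39 luminal and simple epithelial genes 8 were higher, 3 lower and 28 not past the test (median 0.14). Beside Dsp, the armadillo protein Jup, plakoglobin, which binds desmosomal cadherins, measured 8.79, 9.49 and 9.09 against 5.50 to 7.65 (difference 2.80, SE 0.16, adjusted p = 1.2e-08), and Sfn, the 14-3-3 protein sigma of stratified epithelia, 9.17, 9.07 and 9.12 against 7.26 to 8.05 (difference 1.60, SE 0.11, adjusted p = 6.7e-08). Pkp2, a desmosomal plakophilin outside the lists that was chosen after its values were seen, was higher by 2.72 and Lad1, an anchoring protein of the epithelial basement membrane, by 3.37. Other desmosome genes outside the lists, also chosen after their values were seen, did not share this: the desmogleins Dsg2 and Dsg3 and the plakophilins Pkp1 and Pkp3 did not pass (differences 0.16, 0.06, 0.17 and 0.35), and the desmocollin Dsc2 was lower (-0.24). Krt7 was higher by 1.41 and above all others, while Krt18 (difference 1.49) and Spint2, a protease inhibitor of epithelia (1.34), reached 10.60 and 8.61 in 4T1.2 or another tumour and overlapped. Itga6, the integrin alpha chain of hemidesmosomes, was lower (-1.86, SE 0.10, adjusted p = 3.9e-09), with 9.08, 9.14 and 9.19 in EMT6.5, a mean of 9.05 in 67NR and means of 12.14 and 11.96 in EO771 and EO771.LMB. Tns4, an adhesion protein that only 4T1.2 carried at a high level (mean 10.02), the protease St14 and the tight junction protein Ocln were lower by -1.13, -1.13 and -0.70. The luminal count of 8 higher genes was 5 without EMT6.5 tumour 1 and 5 without tumour 2, and EMT6.5 tumour 1 had the highest mean deviation of that list (0.37, 0.16 and -0.15).

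The mesenchymal, collagen, matrix and metalloproteinase lists had larger shares of higher genes than all genes together. Of 34 mesenchymal genes 15 were higher and 5 lower (median 0.27), of 35 collagens 11 and 2 (median 0.11), of 56 matrix glycoproteins and crosslinkers 33 and 6 (median 0.45) and of 40 metalloproteinases and inhibitors 20 and 4 (median 0.46), beside 11.5% higher and 11.9% lower over all genes. Against the Balb/c types these counts were 14 and 6, 11 and 2, 21 and 7, and 16 and 2. Against the C57Bl/6 types they were 16 and 7, 12 and 5, 40 and 5, and 20 and 7. For these references the shares over all genes were 11.9% and 9.56%, and 15.1% and 17.7%. The mean deviation of the metalloproteinase list was 0.26 to 0.38 in EMT6.5 and 0.25 to 0.31 in 4T1.2. For the matrix glycoprotein list it was 0.37 to 0.54 and 0.12 to 0.35. Acta2, smooth muscle actin of myofibroblasts and myoepithelium, measured 11.37, 11.77 and 11.43 against 7.93 to 9.41 (difference 2.95, SE 0.13, adjusted p = 1.4e-09), and Tpm2, a tropomyosin, 10.79, 10.50 and 10.88 against 6.63 to 9.52 (difference 2.35, SE 0.12, adjusted p = 4.1e-09). In EMT6.5 tumour 2, where skeletal muscle genes were not raised, Acta2 was highest and Tpm2 lowest of the 3, and with tumour 2 alone the differences were 3.20 and 2.13. Among mesenchymal genes Ncam1, a neural adhesion molecule, was higher by 2.71, whereas Cdh2, N-cadherin, was lower by -0.68, since 67NR alone held it high (mean 9.14, with 5.35, 5.22 and 5.66 in EMT6.5), and the transcription factors Twist2, Prrx1 and Zeb2 were lower by -0.95, -0.98 and -0.24, with Prrx1 at a difference of 0.35 against the Balb/c types alone (adjusted p = 0.28). The lower count of 5 among the 34 mesenchymal genes was 3 without EMT6.5 tumour 1 or without tumour 3.

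The fibril-forming collagen chains Col1a2 and Col1a1 lay above all other tumours in EMT6.5, by 2.22 (9.65, 9.73 and 9.43 against 6.77 to 8.42) and 1.35 (9.12, 9.23 and 8.71 against 7.03 to 8.45), as did Col12a1 by 1.74 and Col8a1 by 1.95. The basement membrane chains Col4a1 and Col4a2 were lower by -0.34 and -0.48. Vcan, a large proteoglycan, was higher by 1.98 (SE 0.12, adjusted p = 2.1e-08), Thbs1, thrombospondin, by 1.78, Matn2, a matrilin, by 1.71 and Cyr61, a matricellular protein, by 1.56, all above every other tumour. Lama5, the laminin alpha 5 chain, was below all other tumours (6.42, 6.65 and 6.80 against 7.22 to 8.76, difference -1.27, SE 0.10, adjusted p = 6e-07), and Emilin2 was lower by -0.65. Adam12, a membrane-anchored metalloproteinase of mesenchymal cells, measured 8.50, 8.65 and 8.75 against 5.55 to 6.45 (difference 2.76, SE 0.10, adjusted p = 1.7e-10), and Adamts12, Adamts4 and the inhibitor Timp3 were higher by 1.89, 1.14 and 1.10. Mmp1a and Mmp8, collagenases, were lower by -1.73 and -1.33 and shared a low level with 67NR (means 4.60 and 5.14 there). Among 26 integrins 10 were higher and 5 lower (median 0.19, with 6 higher without EMT6.5 tumour 2), beside 11.5% and 11.9% of all genes. Against the Balb/c types 8 integrins were higher and 10 lower, beside 11.9% and 9.56%. Against the C57Bl/6 types 15 were higher and 3 lower, beside 15.1% and 17.7%. Itgb8, a chain that activates latent TGF-beta, was higher by 2.54 (8.48, 8.77 and 8.46 against 5.24 to 7.35), and Itgb6 and Itgb1 by 0.71 and 0.30.

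Fibroblast and pericyte markers moved with these matrix genes, with 19 of 37 higher and 2 lower (median 0.43), beside 11.5% and 11.9% of all genes. Their mean deviation was 0.37 to 0.46 in the EMT6.5 tumours against -0.36 to 0.25 in all others. Their part in the matrix counts was not tested. Ebf1, a transcription factor of stromal and B lineage cells, was higher by 2.13 and above all others, and so were Fbln2, a fibulin (0.91), and Cspg4, the pericyte proteoglycan NG2 (0.74). In contrast Pdgfra, a defining receptor of fibroblasts and the receptor of Pdgfc, was below all other tumours, with 8.61, 8.37 and 8.30 against 9.73 to 10.99 (median 10.55), a difference of -2.0 (SE 0.09, adjusted p = 1.1e-09). The same contrast against the Balb/c types alone gave 10 fibroblast genes higher and 2 lower, beside 11.9% and 9.56% of all genes in that comparison, and against the C57Bl/6 types 25 and 3, beside 15.1% and 17.7%. In EMT6.5 tumour 2 the mean deviation was 0.37 for the fibroblast list, 0.54 for matrix glycoproteins and 0.38 for metalloproteinases.

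Secreted growth factors and cytokines included several of the strongest genes. Among 47 growth factors 11 were higher and 8 lower (median 0.09), and among 52 cytokines and colony-stimulating factors 12 and 7 (median 0.05), beside 11.5% higher and 11.9% lower of all genes. Hgf, the ligand of the Met receptor, measured 8.10, 8.46 and 8.27 against 5.08 to 6.58 (difference 2.41, SE 0.11, adjusted p = 1.6e-09). Fgf2 was higher by 1.93 (8.29, 8.08 and 7.56 against 5.52 to 7.02), and the vessel growth factors Vegfc and Vegfa by 1.64 and 1.39, all above every other tumour. Lif, a cytokine of the IL-6 family, measured 9.18, 9.47 and 8.62 against 5.89 to 7.38 (difference 2.39, SE 0.15, adjusted p = 2.6e-08), and Il6 itself was higher by 1.38 and Il7 by 1.13. Growth factors on the low side had high levels in 1 or more other types: Ereg, an EGF receptor ligand, was at 4.96, 4.95 and 4.73 in EMT6.5, at means of 4.62 and 4.91 in 67NR and 4T1.2 and at 9.02 and 9.52 in EO771 and EO771.LMB (difference -2.14), and the cytokine Tslp was high in 4T1.2 alone (mean 10.39, difference -1.80). Of 50 receptor tyrosine kinases 11 were higher and 4 lower (median 0.08), with Ephb2, an ephrin receptor, above all others (1.66), and Mertk, a receptor for apoptotic cells, below all others (-1.29).

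A TGF-beta ligand, an activin chain and activin antagonists were higher in EMT6.5. Of 47 TGF-beta and BMP genes 15 were higher and 3 lower (median 0.09), beside 11.5% and 11.9% of all genes. The ligand Tgfb2 measured 9.07, 9.59 and 9.18 against 5.82 to 7.95 (difference 2.68, SE 0.12, adjusted p = 1.2e-09). Inhba, which forms activin A, measured 9.58, 9.73 and 9.11 against 6.37 to 7.89 (difference 2.40, SE 0.15, adjusted p = 2.9e-08). Fst, follistatin, which binds activin, measured 9.53, 9.41 and 9.66 against 5.66 to 8.44 (difference 2.60, SE 0.11, adjusted p = 5.4e-10), and the related Fstl3 was higher by 0.74. An activin chain and its antagonist were thus both above every other tumour. The co-receptor Tgfbr3 and Id1, a target of BMP signals, were below all others, by -1.01 and -0.82. Against the Balb/c types alone 6 genes of this list were higher and 6 lower, beside 11.9% and 9.56% of all genes, and against the C57Bl/6 types 20 and 3, beside 15.1% and 17.7%.

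Among 58 Wnt and Hedgehog genes 14 were higher and 8 lower (median 0.08), beside 11.5% higher and 11.9% lower of all genes. The same shares apply to the Notch and axon guidance lists below. Rspo2, an R-spondin that strengthens Wnt signals, measured 7.91, 8.49 and 8.73 against 5.27 to 6.26 (difference 2.82, SE 0.18, adjusted p = 3.7e-08), and the receptor Fzd4 was higher by 0.61. Axin2, a feedback inhibitor that Wnt signals induce, was at 8.36, 8.25 and 8.10 in EMT6.5 and 7.90 in 67NR, and at means of 5.42 to 5.65 in the other 3 types (difference 2.09, SE 0.09, adjusted p = 1.1e-09). Gli3, a transcription factor of the Hedgehog pathway, was lower, with 6.41, 6.14 and 5.94 against 8.15 to 8.90, a difference of -2.40 (SE 0.14, adjusted p = 1.4e-08). No other type had a mean of Gli3 under 8.48. Of 24 Notch genes 4 were higher and 2 lower (median 0.11), with the ligand Jag1 higher by 1.65 (8.68, 9.30 and 8.98 against 6.74 to 7.83). Of 44 axon guidance genes 19 were higher and 10 lower (median 0.19). Beside Sema3c these were Nrp1, its neuropilin receptor (10.63, 10.70 and 10.93, with 10.01 in 67NR and 8.64, 7.0 and 6.47 in 4T1.2, EO771 and EO771.LMB; difference 2.72), and the netrin Ntn4 (1.73), while Plxna4, a plexin, was low in EMT6.5 and both Balb/c types and high in both C57Bl/6 types (-2.0).

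**Figure D4:**
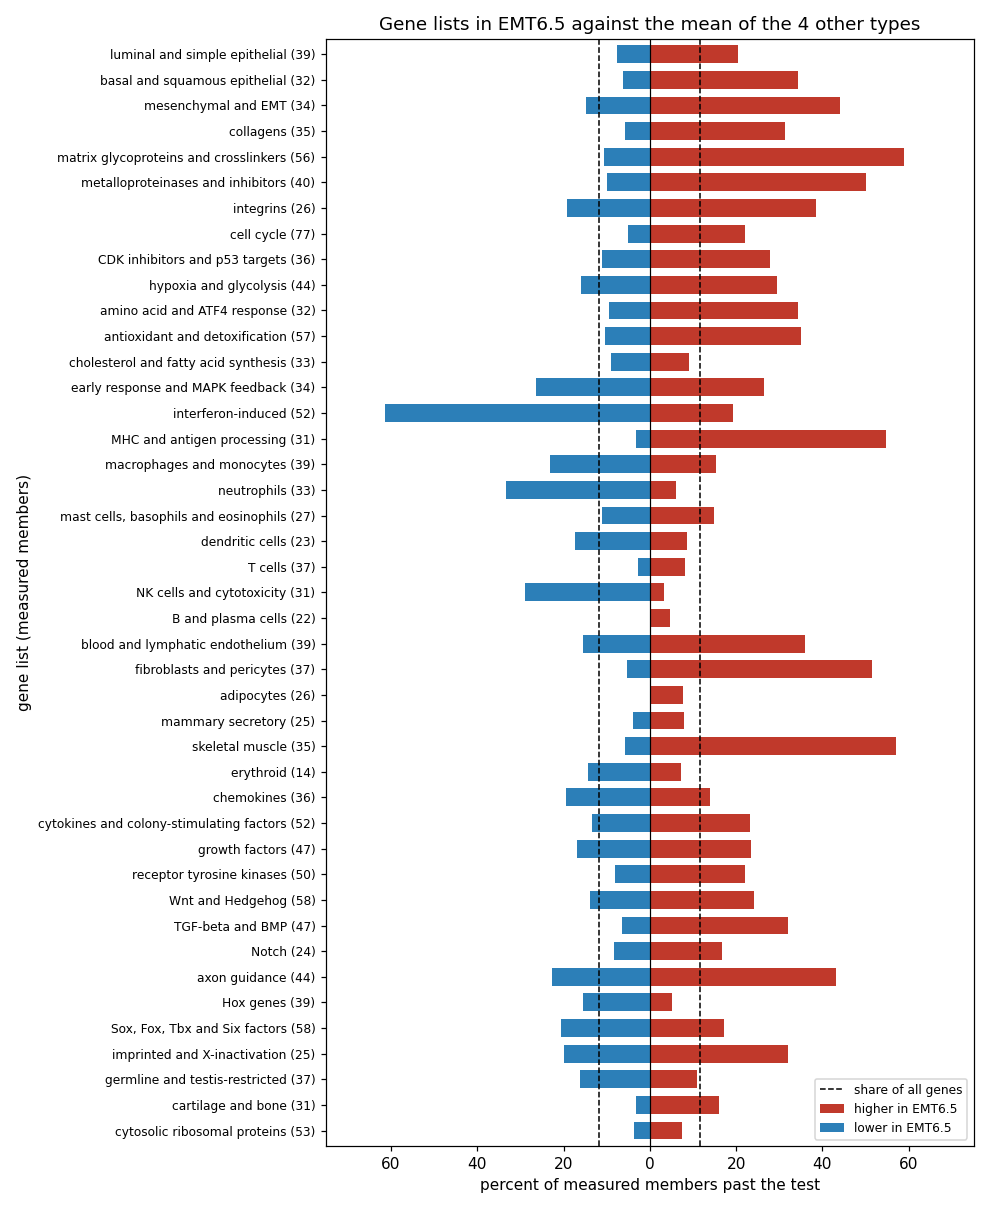
Percent of the measured members of each gene list (vertical axis, measured members in brackets) that were higher (right) or lower (left) in EMT6.5 than in the mean of the 4 other types, with dashed lines at the shares over all genes (11.5% and 11.9%). Matrix glycoproteins (33 of 56), skeletal muscle (20 of 35) and MHC genes (17 of 31) reach farthest to the right and interferon-induced genes (32 of 52) farthest to the left.

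Interferon-induced genes were lower in EMT6.5 against the mean of the other types, but this rested on the C57Bl/6 types. Of 52 such genes 32 were lower and 10 higher (median -0.51), beside 11.9% lower and 11.5% higher of all genes. Against EO771 and EO771.LMB 36 were lower and 5 higher, beside 17.7% lower and 15.1% higher of all genes. Against 67NR and 4T1.2 7 were lower and 12 higher, beside 9.56% lower and 11.9% higher. Rsad2, the antiviral protein viperin, measured 6.90, 6.24 and 7.55 in EMT6.5, with means of 7.18 and 7.93 in 67NR and 4T1.2 and of 10.10 and 10.06 in EO771 and EO771.LMB (difference -1.92, SE 0.20, adjusted p = 8.5e-06). Trim30 and Cmpk2 were below all other tumours (-1.16 and -1.07). Several guanylate-binding proteins went the other way, as Gbp1 did. Gbp2 measured 11.28, 11.37 and 11.62 against 8.64 to 10.39 (difference 2.00, SE 0.17, adjusted p = 1.1e-06), and Gbp6 and Gbp3 were higher by 1.30 and 1.22, while Gbp5, added after its values were seen, measured 8.40, 8.24 and 8.84 against 6.30 to 9.39 and did not pass (difference 0.40, adjusted p = 0.26). Gbp2 differed by 2.06 against the Balb/c types and by 1.94 against the C57Bl/6 types. Within EMT6.5 the mean deviation of the interferon list was -0.38, -0.52 and -0.01, and without tumour 3 only 4 genes were higher, and without tumour 2 21 were lower. MHC and antigen processing genes were higher in 17 of 31 and lower in 1 (median 0.36), beside 11.5% and 11.9% of all genes. The class I gene H2-Q7 measured 11.45, 11.11 and 11.43 against 8.99 to 10.48 (difference 1.68, SE 0.14, limma adjusted p = 7.7e-07). The immunoproteasome subunit Psmb10 was higher by 0.79. The class I gene H2-K1 was the 1 gene that was lower (-0.42), with 8.79, 8.84 and 8.83 in EMT6.5, means of 8.25 and 8.57 in 67NR and 4T1.2 and of 10.15 and 9.99 in EO771 and EO771.LMB. The mean deviation of the MHC list was 0.36, 0.16 and 0.42 in EMT6.5 tumours 1, 2 and 3. In the other tumours it was -0.39 to 0.35.

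Leukocyte lists divided. The counts of this paragraph against the mean of the 4 other types stand beside 11.5% higher and 11.9% lower of all genes. Neutrophil genes were lower in 11 of 33 and higher in 2 (median -0.24). The mean deviation of the neutrophil list was -0.37 to -0.27 in EMT6.5 and -0.25 to 0.80 elsewhere. By type it was -0.25 to -0.18 in 67NR, close to EMT6.5, and 0.54 to 0.80 in 4T1.2. Fpr1, the formyl peptide receptor of neutrophils, measured 4.90, 4.66 and 4.80 against 6.20 to 8.16 (difference -2.13, SE 0.18, adjusted p = 8.6e-07), and the C-type lectin Clec4e and the deiminase Padi4 were lower by -1.58 and -1.49. Ly6g, the antigen that defines mouse neutrophils and was added after its values were seen, measured 4.61, 4.64 and 4.57 against 4.47 to 9.08. In EMT6.5 tumour 2 the mean deviation of the neutrophil list was -0.35. NK and cytotoxicity genes were lower in 9 of 31 and higher in 1 (median -0.30), among them Klra1 (-0.54) and the granzyme Gzmd (6.74, 5.83 and 8.68 in EMT6.5, difference -1.94). The mean deviation of the NK list was -0.62 to -0.15 in EMT6.5 and overlapped that of 4T1.2 (-0.57 to -0.08). It was 0.45 to 0.54 in 67NR, -0.07 to 0.42 in EO771 and -0.07 to -0.03 in EO771.LMB. Macrophage genes depended on the reference: 6 of 39 were higher and 9 lower (median -0.06, with 5 lower without EMT6.5 tumour 2). Against the Balb/c types 22 were lower and 1 higher, beside 9.56% lower and 11.9% higher of all genes. Against the C57Bl/6 types 5 were lower and 21 higher, beside 17.7% lower and 15.1% higher. Gpnmb, a glycoprotein of phagocytes, was below all others (5.51, 5.37 and 5.63 against 5.86 to 8.79, difference -2.29, SE 0.19, adjusted p = 7.3e-07), and Arg1, arginase of alternatively activated macrophages, was higher by 2.02 but overlapped 4T1.2. T cell genes were higher in 3 of 37 and lower in 1 (median -0.04), dendritic cell genes in 2 and 4 of 23 (median -0.04), B and plasma cell genes in 1 and 0 of 22 (median -0.03), and mast cell, basophil and eosinophil genes in 4 and 3 of 27 (median -0.02), with the mast cell protease Mcpt2 above all others (7.36, 7.40 and 8.58 against 4.64 to 6.96). Of 36 chemokines 5 were higher and 7 lower (median -0.07), with Cxcl14 higher by 2.38 and Ccl5 below all other tumours (8.41, 7.91 and 8.36 against 8.74 to 10.51).

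Skeletal muscle had the largest median of any list, 0.72, with 20 of 35 genes higher and 2 lower, beside 11.5% and 11.9% of all genes. The muscle count was carried by EMT6.5 tumours 1 and 3. In EMT6.5 tumour 2 the mean deviation of the muscle list was -0.21, against 1.01 and 1.39 in tumours 1 and 3. Without tumour 1 the higher count was 11 and without tumour 3 it was 10. With tumour 2 alone the difference of Myh4 went from 3.19 to 0.01, that of Ttn from 2.89 to 0.08 and that of Neb, nebulin, from 2.42 to -0.55. Eno3, the muscle form of enolase, was the only listed muscle gene above all other tumours, with 10.62, 10.52 and 10.76, and means of 10.24 and 10.21 in 67NR and 4T1.2 (difference 1.79). Of other tissues, endothelial genes were higher in 14 of 39 and lower in 6 (median 0.11; 9 higher without EMT6.5 tumour 1 or without tumour 2). Emcn, a sialomucin of vessels, was higher by 1.28 and Eng, endoglin, lower (-1.08). Against the Balb/c types 4 endothelial genes were higher and 5 lower, beside 11.9% and 9.56% of all genes. Against the C57Bl/6 types 18 were higher and 5 lower, beside 15.1% and 17.7%. Adipocyte genes were higher in 2 of 26, mammary secretory genes in 2 of 25 and erythroid genes in 1 of 14, beside 11.5% of all genes. Their medians were 0.19, 0.12 and 0.10.

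Over all genes 11.5% were higher and 11.9% lower, beside which the lists of cell growth and stress are set here. The cell cycle list again turned with the reference. Of 77 genes 17 were higher and 4 lower (median 0.07), but against the Balb/c types 51 were higher and 1 lower (median 0.48), beside 11.9% and 9.56% of all genes, and against the C57Bl/6 types 6 were higher and 36 lower (median -0.27), beside 15.1% and 17.7%. Mki67, the proliferation antigen, measured 10.90, 10.79 and 10.89 against 9.56 to 10.76 (difference 0.69, SE 0.10, adjusted p = 0.00014) and, with the DNA-binding motor Kif4 (0.86), lay above all others. The CDK inhibitor Cdkn1b, p27, was below all others (9.33, 8.83 and 9.05 against 9.54 to 10.11, difference -0.73), while the p53 targets Ccng1 and Plk2 were above all others by 1.30 and 1.2, within a list of 36 with 10 higher and 4 lower (median 0.04). Of 44 hypoxia and glycolysis genes 13 were higher and 7 lower (median 0.17), with Aldoc, an aldolase, and Vegfa above all others and Egln3 and the glycolytic enzymes Pfkp (-0.72) and Pfkfb3 (-0.42) below all others. Of 57 antioxidant and detoxification genes 20 were higher and 6 lower (median 0.18, with 3 lower without EMT6.5 tumour 2 or tumour 3). Nqo1, a quinone reductase, measured 8.32, 8.30 and 8.58 against 5.42 to 6.98 (difference 2.19, SE 0.09, adjusted p = 3.4e-10), and Gsta1 and Gsta2 were higher by 1.30 and 1.08, though close relatives of this family may share probe signal. Hmox1, heme oxygenase, and Sod2 were lower by -0.68 and -0.86.

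Of 34 early response and MAPK feedback genes 9 were higher and 9 lower (median 0.14), and without EMT6.5 tumour 3 only 3 were higher. This count and those of the lists below stand beside 11.5% higher and 11.9% lower over all genes. Egr1 measured 7.82, 9.11 and 8.82 against 6.15 to 7.65 (difference 2.01, SE 0.21, adjusted p = 8e-06) and Egr2, whose promoter is shown above, was higher by 1.66. Etv1, an ETS factor, was below all others (9.70, 9.90 and 9.72 against 10.94 to 11.99, difference -1.74), and Myc and Jun were lower by -1.74 and -1.26, with EMT6.5 at the level of 67NR for Myc (8.51, 8.78 and 8.70, and a mean of 8.77 in 67NR) and both C57Bl/6 types near 11.63 and 11.69. Of 32 amino acid and ATF4 response genes 11 were higher and 3 lower (median 0.20). Against the Balb/c types 18 were higher and 1 lower, beside 11.9% and 9.56% of all genes. Against the C57Bl/6 types 6 were higher and 11 lower, beside 15.1% and 17.7%. Vldlr, a lipoprotein receptor, and Chac1, which degrades glutathione, lay above all others, by 1.01 and 0.92. Cholesterol and fatty acid genes were higher in 3 of 33 and lower in 3 (median -0.08). Against the Balb/c types 8 of them were higher and 0 lower (median 0.27), beside 11.9% and 9.56% of all genes. Against the C57Bl/6 types 2 were higher and 17 lower (median -0.48), beside 15.1% and 17.7%. Cytosolic ribosomal protein genes were higher in 4 and lower in 2 of 53 (median 0.03).

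Counts of the developmental lists stand beside 11.5% higher and 11.9% lower over all genes. Of 58 Sox, Fox, Tbx and related homeobox and Runt factors 10 were higher and 12 lower (median -0.03), the second count being 7 without EMT6.5 tumour 1. Runx1, a factor of blood and mammary cells, and Runx3 were above all others, by 1.28 (10.33, 10.61 and 10.28, a gap of 0.28 to the nearest other tumour) and 1.18, and Runx2, a bone factor that is also in the cartilage and bone list, by 0.70. Of 39 Hox genes 2 were higher and 6 lower (median -0.02, with 3 lower without EMT6.5 tumour 2 or without tumour 3), and Hoxd8, Hoxd9 and Hoxd10 were high in both C57Bl/6 types (differences -1.43, -0.99 and -1.92). Of 31 cartilage and bone genes 5 were higher and 1 lower (median 0.03). Tnfrsf11b, osteoprotegerin, which blocks the osteoclast factor RANKL, measured 8.29, 8.49 and 8.25 against 5.23 to 6.13 (difference 2.56, SE 0.10, adjusted p = 4.4e-10). Of 25 imprinted genes 8 were higher and 5 lower (median 0.16), and of 37 germline genes 4 were higher and 6 lower (median -0.08), with Nanog, a factor of pluripotent cells, at 7.23, 7.22 and 7.06 against 5.73 to 6.43 (difference 1.09) and Dppa2 and Dppa4 high only in the C57Bl/6 types (-2.28 and -1.48).

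Genes beyond all other tumours lay beside each other on chromosomes more often than genes at large. By RefSeq order (GRCm38.p6), 234 of 756 genes above all others with a position (31%) had another such gene among the 2 measured genes on either side, which held for 13.2% of all 20342 genes with a position, and 101 of 508 genes below (19.9%) had another gene below, against 9.17% of all. The runs named in this paragraph were chosen after their values were seen. On chromosome 6 Tfpi2, a protease inhibitor (difference 1.48), Gngt1 and Gng11, a pair of G protein gamma subunits (1.73 and 3.94), and Col1a2 (2.22) followed each other, with only Bet1 (0.52) between them overlapping the other tumours, and Pon3 (0.83), Asb4 (0.55) and Pdk4 (3.83) lay near. On chromosome 3 Gbp3, Gbp1, Gbp2, Ccbl2 (1.12), Gtf2b (1.52) and Pkn2 (0.75) were all above every other tumour, the last 3 being an aminotransferase, a general transcription factor and a kinase outside the interferon list. On chromosome 15 Ext1, a heparan sulphate polymerase (1.54), Samd12 (3.04) and Tnfrsf11b were adjacent, and on chromosome 1 Csrp1 (1.19), Phlda3 (1.11), Lad1 and Tnnt2, a cardiac troponin (2.80), with Tnni1 (-0.09) among them. Tnnt2 measured 10.62, 10.96 and 10.61 and was thus as high in EMT6.5 tumour 2 as in tumours 1 and 3. On chromosome 8 the neighbours Efha2, a mitochondrial calcium uptake protein, and Zdhhc2 were both below all others (-2.21 and -3.36).

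Chromosomes 18 and 19 stood apart as wholes. On chromosome 19, 75 of 712 genes (10.5%) were above all other tumours and 9 (1.26%) below, against 3.72% and 2.5% of all genes with a position, and 179 (25.1%) were called higher and 42 (5.9%) lower. On chromosome 18, 37 of 473 genes (7.82%) were below all other tumours and 6 (1.27%) above, and 117 (24.7%) were called lower and 32 (6.77%) higher. The other chromosomes ranged from 1.75% to 5.91% above and from 0.913% to 4.09% below. The median difference was 0.08 on chromosome 19 and -0.11 on chromosome 18, against -0.01 over all genes with a position. The sign was the same against each type in turn: on chromosome 19 the median of EMT6.5 minus 67NR, 4T1.2, EO771 and EO771.LMB was 0.08, 0.11, 0.09 and 0.08, and on chromosome 18 it was -0.10, -0.10, -0.08 and -0.12. Chromosomes 4, 6 and 16 also kept 1 sign against all 4 types, with medians from -0.07 to 0.05. Calls were uneven elsewhere too, with 6.29% higher and 14.7% lower on chromosome 2 and 9.15% and 17.8% on chromosome 6. On chromosome 16, 14.1% were higher and 7.13% lower. Single genes differed by little or by much. On chromosome 19 Ddb1, a DNA damage-binding protein, measured 10.96, 11.04 and 11.04 against 10.47 to 10.71 (difference 0.41), and Acta2 (2.95) and Trpm6, a magnesium channel (2.41), also lie there. On chromosome 18 Hsd17b4, a peroxisomal enzyme, measured 9.37, 9.37 and 9.51 against 9.69 to 10.37 (difference -0.53), and Slc14a1 (-3.19), which overlapped, also lies there. Ddb1, Trpm6 and Hsd17b4 were chosen after their values were seen. No genomic DNA was measured here, and the number of gene copies was not tested.

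**Figure D5:**
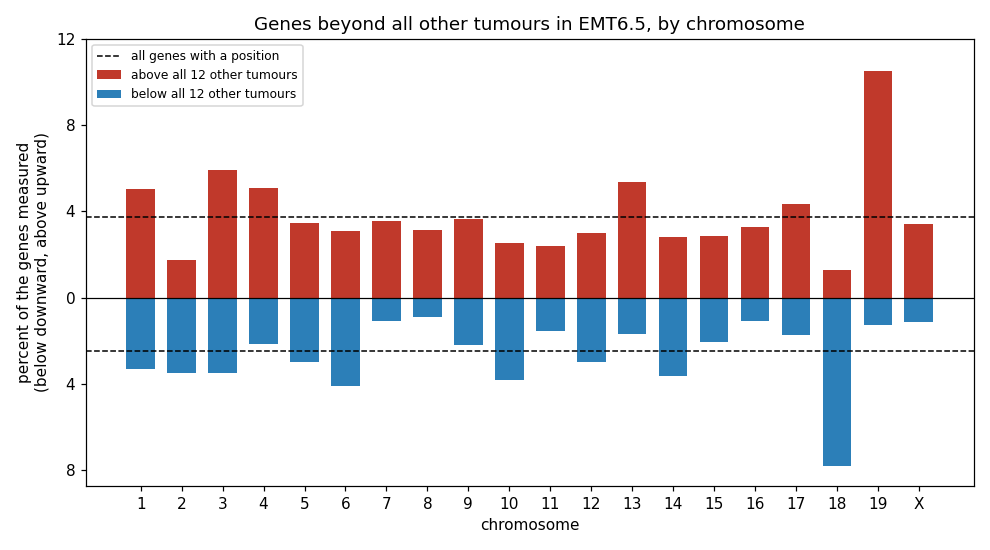
Percent of the measured genes of each chromosome (horizontal axis) that lay above (upward) or below (downward) all 12 other tumours in EMT6.5, with dashed lines at the shares over all genes with a position (3.72% and 2.5%). Chromosome 19 reaches 10.5% above and chromosome 18 reaches 7.82% below.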

How the data were processed

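The 15 tumours (5 types, 3 each) were grouped by their titles, which number the mice of each type, so p-values measure the spread between these tumours. Per the methods and the submitters' processing notes, the log2 values deposited for 35556 clusters had been background-corrected, quantile-normalized and summarized by median polish by the authors. The methods name GCRMA, and the notes name RMA and Partek 6.6, so the algorithm is not settled. Without detection calls, a gene of low signal may be unexpressed. Precision is limited by the number of arrays. A workbook held the same values (0 of 533340 differed), and 30 per-sample columns of its other sheets were not used.

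Genes are the 22008 leading symbols, each by its cluster with the highest mean. The 26 symbols that had become dates in a spreadsheet were restored from the assignment text. Of these genes, 20342 were found in a RefSeq table (GRCm38.p6), which gave chromosomes and gene order only, apart from the promoters printed.

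One linear model with tumour type as its only term was fitted to all 15 tumours in R 4.3.3 with limma 3.58.1, without filter or further normalization, and Benjamini-Hochberg adjustment of the p-values took in every cluster. The members and the 43 gene lists (1652 of 1670 entries measured, 29 of them under an older symbol) were chosen with earlier results of these data known, and no set test was run. Named genes are, per direction, the 15 largest differences beyond all 12 others, leaving out symbols of fixed forms, such as those ending in Rik or starting with Gm or LOC but not EG (2 above and 1 below), up to 4 called members per list, those beyond all others first, and 3 called genes that overlap. Some genes that this rule names are not reported here. Tumours with the same number did not deviate together (30 pairs, r from -0.168 to 0.149, 4 over 0.1), so no pairing was assumed. On simulated data for this comparison with 35556 clusters, 27 of 67 changes of 0.5, 60 of 66 of 1.0 and 64 of 67 of 2.0 were recovered, and 4 of 35356 unchanged clusters were called. Only these few clusters were set to change in EMT6.5, and the noise was normal. In the data 3529 clusters were called higher and 3530 lower, so the simulated rates do not carry over to the counts reported.

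Alternatives were the workbook values, centring or quantile normalization of the arrays, an unmoderated analysis of variance, a filter at the median signal, an intensity trend with a robust prior, the 12 others as 1 group, each pair of types as reference, the mean of a gene's clusters, each tumour left out, the tumour number as a block, an adjusted p under 0.01 and, chosen after seeing the data, EMT6.5 tumour 2 alone.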

Additional observations from a re-analysis of the deposited data

How the results depend on the processing

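The workbook values, centring, quantile normalization, the filter on signal, the unmoderated analysis of variance, the intensity trend and the mean of a gene's clusters each kept the 4 counts of genes within 1.5 times of those reported. With the 12 other tumours as 1 group 613 genes were higher, 360 lower, 512 above all others and 307 below, since the spread then holds the differences among types. With an adjusted p under 0.01, 1689 were higher and 1707 lower. Beyond the tumours of the reference types alone, fewer of which must be passed, 1752 were above and 1173 below with 67NR and 4T1.2, and 2829 and 3484 with EO771 and EO771.LMB. With EMT6.5 tumour 2 alone, chosen after seeing the data, 1148 were higher and 1111 lower. Leaving out each tumour gave 1864 to 2565 higher, 1935 to 2689 lower, 796 to 1018 above and 542 to 705 below. The tumour number did not pair the samples, and with it as a replicate block 2469 were higher, 2520 lower, 785 above and 534 below. Of the 178 named genes that passed, 66 did not pass with the 12 other tumours as 1 group, namely Gbp1, Dkk2, Has2, Nhedc1, Slc14a1, Chic1, Egr2, Dsc2, Krt18, Spint2, Itga6, Tns4, St14, Ocln, Cdh2, Twist2, Prrx1, Zeb2, Col12a1, Col8a1, Col4a1, Col4a2, Vcan, Thbs1, Cyr61, Timp3, Mmp1a, Mmp8, Itgb1, Ereg, Tslp, Id1, Axin2, Nrp1, Plxna4, Rsad2, Cmpk2, Gbp3, H2-K1, Ly6g, Klra1, Gzmd, Arg1, Cxcl14, Eno3, Emcn, Eng, Mki67, Kif4, Pfkp, Pfkfb3, Hmox1, Sod2, Myc, Jun, Runx1, Hoxd8, Hoxd9, Hoxd10, Dppa2, Dppa4, Bet1, Ccbl2, Ext1, Trpm6 and Hsd17b4. Against 67NR and 4T1.2 alone 19 did not pass, namely Dkk2, Slc14a1, Spint2, St14, Ocln, Col4a1, Mmp1a, Plxna4, Rsad2, Ly6g, Klra1, Arg1, Mki67, Pfkfb3, Sod2, Hoxd9, Hoxd10, Dppa2 and Dppa4. Against EO771 and EO771.LMB alone 6 named genes did not pass, and 146 of the 189 named genes remained under the filter on signal. Prrx1 (0.35), Ereg (0.11) and H2-K1 (0.41) turned to higher against 67NR and 4T1.2, Cdh2 (0.40) and Dsc2 (0.09) against EO771 and EO771.LMB, and Neb turned to lower (-0.55) with EMT6.5 tumour 2 alone. The causes were not tested.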
